A study of Triticum aestivum with 4 samples.

Results

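The wheat genes hsp16.9A (LOC543277) and FKBP70 (LOC543314) encode chaperones of protein folding. Their members on the array were taken as all probe sets whose gene, in the platform annotation or as a synonym in RefSeq's genes for the assembly IWGSC CS RefSeq v2.1, carries one of these names. This gave 2 of the 771 genes annotated on the array and 2 of its 61179 probe sets, 1 for hsp16.9A (Ta.24332.1.S1_at) and 1 for FKBP70 (Ta.28955.1.S1_at). The suffix _at, without a further letter, marks probe sets designed for a single transcript, although wheat is hexaploid and near-identical copies of a gene may be read together. The array values name no genome build, so positions are left out.

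RNA came from flag leaves, the last leaves to form on the stem, of the wheat cultivar TAM 107 at 10 days after pollination. The control group had 2 arrays from plants under normal conditions, and the heat group had 2 arrays from plants that spent 1 h in a growth chamber at 40 °C. All plants had been raised in the field and potted before flowering. Whether controls also went into a chamber is not in the labels, so chamber and temperature cannot be told apart. Nor do the labels say that arrays of a group were separate plants, so p-values measure the spread between arrays, which may be technical.

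Small heat shock proteins such as hsp16.9A bind proteins that begin to unfold and hold them in a form that other chaperones, which use ATP, can refold. In plants the genes of this class are known for being nearly silent in unstressed vegetative tissue and for being switched on by heat shock transcription factors. FKBP70 belongs to the large FK506-binding immunophilins, peptidyl-prolyl isomerases that speed the turning of the bond before a proline and that can dock onto the chaperone HSP90. Such proteins have a role in unstressed cells as well as under stress.

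Both chaperone transcripts were far higher after heat. In control leaves hsp16.9A gave signals of 197.0 (replicate 1) and 189.3 (replicate 2), and in heated leaves 19520 and 19269. FKBP70 gave 5980 and 6028 in control leaves, and 41788 and 41076 in heated leaves. Both heat arrays lay above both control arrays for each gene, with no overlap, a separation that 25.5% of the 30590 tested probe sets also showed. Within a group the paired values of each gene differed by little, while the step between groups was large for both.

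**Figure D1:**
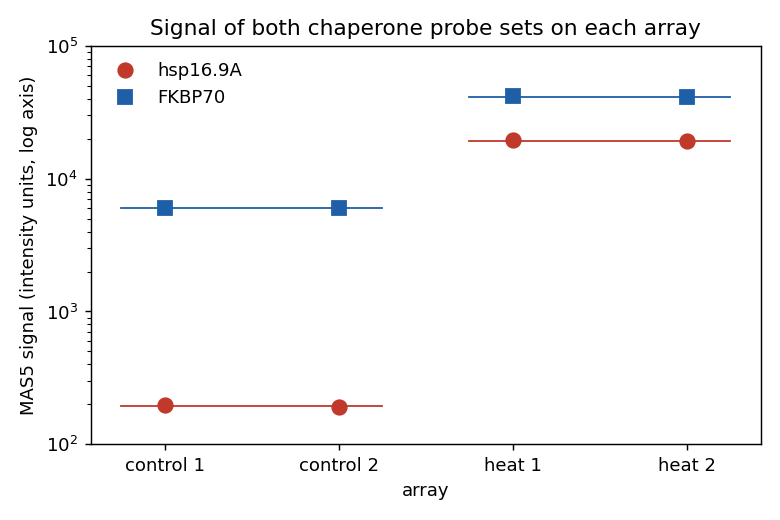
MAS5 signal (log axis) of the hsp16.9A and FKBP70 probe sets on each of the 4 arrays; points are arrays and horizontal lines are group means. hsp16.9A stepped from a mean of 193 to 19394 and FKBP70 from 6004 to 41432.

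hsp16.9A rose from a mean of 193 ± 5.45 to 19394 ± 178 (SD, n = 2 per group). This was a 100.4-fold rise, at log2 6.65 ± 0.07 SE (adjusted p = 4.99e-09, limma fitted across the tested probe sets). Over the 4 pairings of a heat array with a control array the fold ran from 97.8 to 103. That range shows only the spread between arrays. The fold also depends on the low control signal, and was 75.7 with an offset of 64 added to every signal. FKBP70 rose from 6004 ± 33.8 to 41432 ± 504 (SD, n = 2 per group), 6.90-fold or log2 2.79 ± 0.05 SE (adjusted p = 2.02e-08, limma). Its fold over the same pairings ran from 6.81 to 6.99. Thus 2 of the 2 members were called higher, where 14.2% of all tested probe sets were called higher and 37.0% were called in either direction. In bulk leaf RNA, more cells with a transcript and more RNA per cell cannot be told apart.

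The genes differed in the control signal from which they rose. For hsp16.9A nearly all of the heat signal was gained during treatment, a gain of 19201 units. For FKBP70 most of the heat signal was also gained, 35428 of 41432 units. Its control signal of 6004 was already bright. Within each array the log2 signal of hsp16.9A minus that of FKBP70 was -4.92 and -4.99 in control and -1.10 and -1.09 in heat, so the distance between the 2 signals narrowed on both heat arrays. The log2 changes differed by 3.86, which is a 14.6-fold larger fold change for hsp16.9A. The 4 within-array values had a pooled SD of 0.035 within groups, so this difference was far larger than the spread between arrays. With so few arrays the smallest two-sided p that exact permutation allows is 0.333, and it decides nothing here. This difference is unaffected by any single scaling factor applied to an array. It compares changes only. Probe sets hybridize with different strength, so the signals do not rank the abundance of the 2 transcripts.

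By signal, both probe sets moved up within the array. On the control arrays 21347 and 21288 probe sets, 34.9% and 34.8% of the array, were brighter than that of hsp16.9A. On the heat arrays only 508 and 511 were brighter, 0.830% and 0.835%. FKBP70 began much closer to the top, with 1835 and 1852 brighter probe sets in control (at most 3.03% of the array), and had 87 and 90 above it in heat (0.142% and 0.147%). The ranks of the 2 arrays of a group lay close together, and the groups were far apart for both genes.

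The rises can also be set beside the highest signals seen, which are not a known limit of the array. The highest signal of any probe set was 62439 and 62032 on the heat arrays. A rise from its control mean to the average of these would be 322-fold for hsp16.9A and 10.4-fold for FKBP70, so a fold as large as that of hsp16.9A would have carried the FKBP70 probe set beyond every signal on these arrays. Whether FKBP70 signals were compressed near the top of the scale was not tested.

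By size of change, hsp16.9A held rank 5 among the 30590 tested probe sets. Of the 4 with a larger log2 change, 3 had a control mean below the brightness filter of 69.1, where the size of a change is uncertain. The other, Ta.201.1.S1_at, has only a LOC number as its gene symbol and rose 118-fold. A called rise of at least 100-fold was seen for 5 probe sets in all, and for 2 with a control mean at or above the filter. FKBP70 was exceeded by 245 probe sets in log2 change, 0.801% of those tested, and its rank of 246 became 793 when dim probe sets were also ranked. It was among the 548 called probe sets that rose at least 4-fold and not among the 204 that rose at least 8-fold, while hsp16.9A was in both classes. By gain in signal units the order turned, since 97 probe sets gained more than hsp16.9A and 17 gained more than FKBP70.

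**Figure D2:**
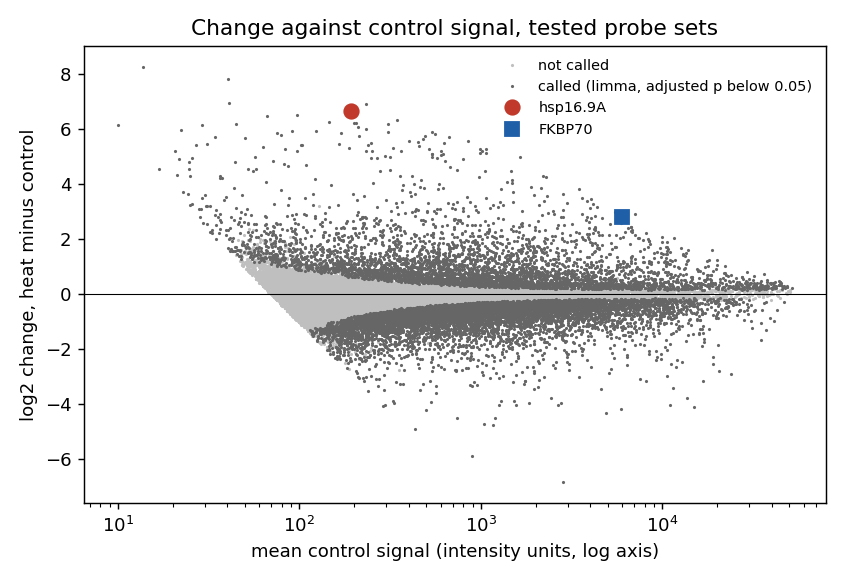
Log2 change (heat minus control) against the mean control signal (log axis) for the tested probe sets, each a point, dark where called in limma at an adjusted p below 0.05. hsp16.9A (log2 6.65) lies at the upper edge of the cloud at a low control signal, and FKBP70 (2.79) lies near the upper edge at a high one.

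Changes are best read against probe sets of like brightness. With a control mean within a factor of 2 of hsp16.9A (96.6 to 386) there were 12275 other tested probe sets, with a median log2 change of -0.25. Of these 891 (7.26%) were called higher, 485 of them at least 2-fold, and 1 matched or exceeded the change of hsp16.9A. Within a factor of 2 of FKBP70 (3002 to 12008) there were 2959 others, with a median of -0.11. Of these 709 (24.0%) were called higher, 178 of them at least 2-fold, and 12 matched or exceeded the change of FKBP70. Relative to their own brightness, both genes thus stood among the few largest rises. The window medians depend on scaling, and that around FKBP70 was 0.0062 with median centring and -0.20 with quantile normalization.

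Both members varied little between repeat arrays. The SD between control arrays was 0.041 on the log2 scale for hsp16.9A, where the median in its window was 0.178. For FKBP70 it was 0.0081, where the median was 0.039. Between the heat arrays it was 0.013 for hsp16.9A and 0.018 for FKBP70, where the medians over probe sets with a heat mean within a factor of 2 were 0.035 and 0.030. With 2 arrays such an SD is itself poorly known, and limma's moderated SE, larger than these spreads alone would give, was used for the tests.

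Probe sets with the most similar signals were sought by the Euclidean distance over the 4 log2 values. Nearest to hsp16.9A was Ta.6123.1.A1_x_at, with 182.6 and 202.3 in control and 16584 and 16395 in heat, at a distance of 0.36 and a rise of 85.8-fold. The next, Ta.6123.1.A1_at, shares all but the suffix of that identifier and rose 74.3-fold. Both may read the same transcript, so they need not be separate matches. Probe sets with a further letter in the suffix, such as _x_at or _a_at, were treated here as shared between transcripts. Whether such probe sets also read a member's transcript was not tested. Nearest to FKBP70 was Ta.132.1.S1_a_at, with 5837 and 6041 in control and 38367 and 40311 in heat, at a distance of 0.13 and a rise of 6.62-fold. It was followed by Ta.9115.1.S1_at, which rose 7.90-fold. Within a distance of 1 there were 7 other tested probe sets for hsp16.9A and 29 for FKBP70. Probe sets with control signals like that of hsp16.9A varied more between control arrays (median log2 SD 0.178) than those like FKBP70 (0.039). A fixed distance is therefore not an equal cutoff for both genes.

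**Figure D3:**
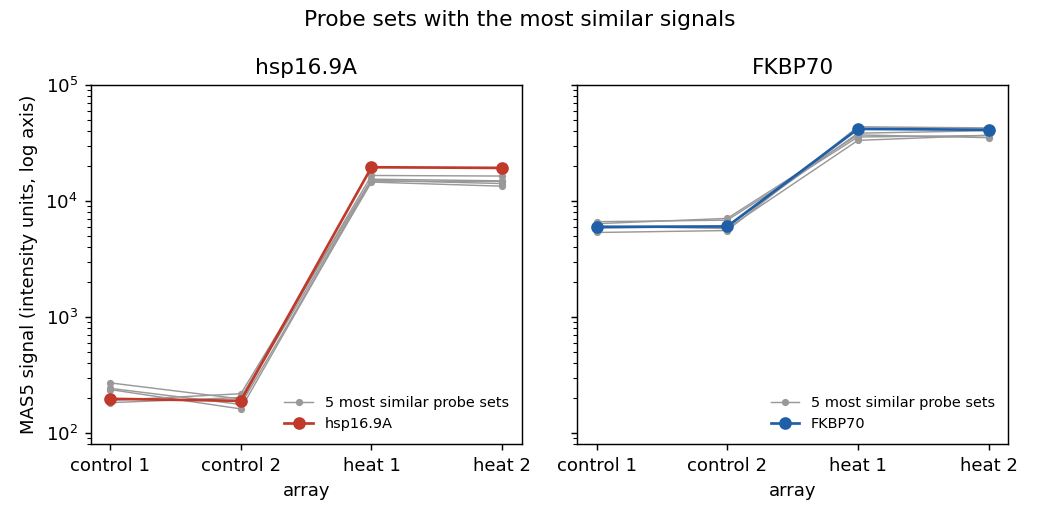
MAS5 signal (log axis) on each array for hsp16.9A (left) and FKBP70 (right) in colour, with the 5 probe sets at the smallest distance over the 4 log2 signals in grey. The grey lines follow the same step because they were chosen by these signals. Their heat means were 13975 to 16489 beside hsp16.9A and 35044 to 43101 beside FKBP70.

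When each probe set was centred on its own control mean, so that only the change counted, the nearest to hsp16.9A were Ta.201.1.S1_at (118-fold) and again Ta.6123.1.A1_x_at. The nearest to FKBP70 were Ta.9196.1.S1_x_at (6.98-fold) and TaAffx.16099.3.S1_at (6.99-fold). The last of these rose from 229 ± 8.46 to 1599 ± 19.5 (SD, n = 2 per group), a change like that of FKBP70 from a dim start. Within a distance of 1 on this scale there were 15 other tested probe sets for hsp16.9A and 319 for FKBP70. Over the 4 lists of 5 nearest probe sets, 19 were distinct and only 1 had a gene symbol, a LOC number with no further name. The similarity rests on 4 arrays and carries no statement on shared function.

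Other chaperones could be followed only as far as names allow. Of 10 lists of folding and turnover genes, 7 had no named gene on the array, namely HSP40, HSP60, HSP70, HSP90 and HSP100 chaperones, heat shock factors, and protein disulfide isomerases with calnexin and calreticulin. The small heat shock protein list held hsp16.9A alone and the immunophilin list FKBP70 alone. Each was 1 of 1 higher, where 14.2% of all tested probe sets were. Both lists thus repeat the members' own results and add nothing to them. The median log2 change over all tested probe sets was -0.15 as deposited, and -0.03 with median centring, -0.02 with cyclic loess and -0.07 with quantile normalization. The ubiquitin list held UBC1, a ubiquitin-conjugating enzyme that helps mark proteins for degradation. Its signal was 15600 ± 186 in control and 16106 ± 322 in heat (SD, n = 2 per group), at log2 0.05 ± 0.05 SE (adjusted p = 0.509, limma), and the sign was negative after quantile normalization or cyclic loess. Only 1273 probe sets have a gene symbol, and 59906 have none. Of the 771 annotated genes, 102 have a name other than a LOC number, and only these were searched. The search used symbols and synonyms, not gene descriptions. Chaperones among the unnamed probe sets, or among genes with only a LOC number, are therefore not counted here.

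Among the 71 tested genes with a name, 24 were called higher (33.8%) and 17 lower (23.9%), where 14.2% and 22.9% of all tested probe sets were. These shares are not like for like, since each named gene was read by its brightest probe set. The share called higher differed with brightness, at 7.26% in the window around hsp16.9A and 24.0% in that around FKBP70. hsp16.9A had the largest log2 change of them and FKBP70 held rank 3, with Glc1 between them at 8.14-fold (506 ± 29.3 to 4129 ± 361, SD, n = 2 per group). After FKBP70 came the xylanase inhibitor xip, which acts against microbial enzymes that attack the plant cell wall, at 2.85-fold. In signal units FKBP70 gained most of the 71 and hsp16.9A held rank 3, with rbcL, the large subunit of Rubisco, between them. By signal, FKBP70 moved from place 27 to place 7 among the named genes on both arrays of a group, and hsp16.9A from places 62 and 60 to place 17.

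The rises of both chaperones held under each processing alternative. Other filters or variance models, leaving out shared probe sets and the replicate block cannot move a log2 change, only its SE and p-value. Only the other scalings, the offset and leaving out an array could move it. Across 15 alternatives the log2 change of hsp16.9A ran from 6.24 to 6.77 and that of FKBP70 from 2.62 to 2.90, and each passed the threshold in limma or with unmoderated t statistics in all of them. The highest adjusted p was 0.0174 for each, with unmoderated t statistics.

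**Figure D4:**
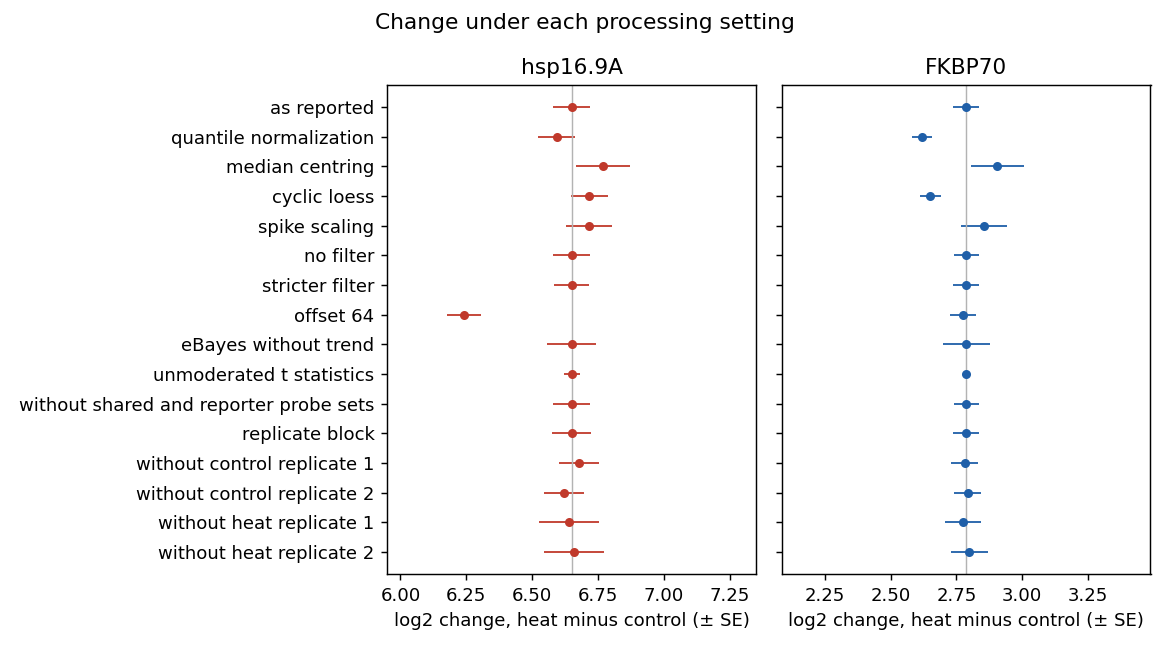
Log2 change (heat minus control, ± SE) of hsp16.9A (left) and FKBP70 (right) under the reported setting, marked by the vertical line, and 15 alternatives. Values of hsp16.9A stay between 6.24 and 6.77 and those of FKBP70 between 2.62 and 2.90. Settings that change only the filter, the variance model, the shared probe sets or the block repeat the reported value by construction.

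Arrays of one group were alike as a whole. Over the tested probe sets, which are not independent replicates, Pearson's r of log2 signals was 0.979 within control, 0.977 within heat and at most 0.915 for a control with a heat array. The tissue label was checked against 5 leaf genes (rbcL, PsbO, PsbP, PRK and CAT1), whose control means were 32960 to 44644. Of 11 genes found by grain storage protein and serpin names, 7 had control means below the filter, 3 had 147 to 283, and ALP, an avenin-like gene, was bright at 7920 in control and 7817 in heat. The name pattern missed a serpin gene, SER1, singled out after its values were seen, with a control mean of 107. Any part of grain RNA in the chaperone signals was not tested.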

How the data were processed

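Data of 4 arrays were analysed as the authors deposited them: linear MAS5 signal intensity, 1 value per probe set and array, made with Affymetrix Expression Console 1.1 per the submitters' processing notes. Its settings were not given. After the lowest and the highest 2% are dropped, the mean of the deposited values is 500.0 on each array, as for values scaled to one target. Detection calls were not used here. No sequences of the genes or probes were used here.

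The 111 AFFX controls of the 61290 probe sets were left out. Log2 intensity was used with no new scaling. Probe sets averaging at least 6.11 in log2 signal (69.1 in signal, the median) entered the fit, 30590 in all. The fit used limma 3.58.1 under R 4.3.3 (lmFit, eBayes with an intensity trend, 2 residual degrees of freedom), two-sided, with Benjamini-Hochberg adjustment over all of them and a threshold of 0.05. The script was tested on simulated data. The number of arrays limits the precision.

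Genes named in the text are both chaperones, members of the 10 lists and neighbours in the ranking of named genes. The 2 nearest probe sets by each measure of likeness are also named. The remaining names are leaf and grain genes of the tissue check, with SER1 picked after its values were seen. A search for relatives by protein alignment was planned and not made, as no protein sequences were used here. Gene descriptions were also to be searched for the lists and were not. Of 771 annotated genes, 770 gene IDs were found in the gene table. Where a gene had several probe sets, the brightest stood for it. Members and lists were chosen with earlier results of these data known. The alternatives were other scalings, filters, an offset of 64, variance models, leaving out shared probe sets, a replicate block, and leaving out each array.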

Additional observations from a re-analysis of the deposited data

How the results depend on the processing

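The calls and directions of hsp16.9A and FKBP70 held under all 15 alternatives, and leaving out each array gave log2 changes of 6.62 to 6.68 for hsp16.9A and 2.77 to 2.80 for FKBP70. The difference between their log2 changes was 3.97 under quantile normalization, 4.07 under cyclic loess and 3.47 with an offset of 64, and 3.83 to 3.90 without single arrays. The number of probe sets called, 11332, fell to 2593 with unmoderated t statistics and to 6998 without shared and reporter probe sets, where fewer were tested. Without single arrays it was 7628 to 10665. The place of hsp16.9A by log2 change was 3 with the stricter filter and 2 with the offset, and 5 to 7 without single arrays. That of FKBP70, 246 as reported, was 793 with no filter and 245 to 278 without single arrays. Without shared and reporter probe sets fewer stand in the ranking by signal, and hsp16.9A was at place 13634 in control and 226 in heat, and FKBP70 at 913 and 38. Without single arrays the places by signal were 21289 to 21348 and 509 to 512 for hsp16.9A and 1836 to 1853 and 88 to 91 for FKBP70. UBC1 was at log2 -0.27 under quantile normalization, past the threshold, and at -0.090 under cyclic loess; the cause was not tested. The deviations of same-numbered arrays from their group means correlated at 0.011 across probe sets, so no shared deviation was seen. This cannot settle whether same-numbered arrays were paired, which the labels do not say. With the replicate block, 11603 probe sets were called. Each replicate number has a control and a heat array, so the block cannot move the log2 changes. Those of hsp16.9A and FKBP70 were thus 6.65 and 2.79 by construction.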
